A study of Mus musculus with 16 samples.

Results

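Srebf2 and 7 enzymes of the mevalonate and sterol pathway were examined in mouse mammary adipose tissue, namely Hmgcs1, Idi1, Fdps, Fdft1, Sqle, Lss and Cyp51. The 8 genes were taken by symbol from the 23179 genes of the table, and all 8 passed the filter on low values, as did 21218 genes in all. None of the 8 encodes a cholesterol uptake receptor, so uptake genes are described after them as a separate list.

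Total RNA was sequenced from the mammary fat pad on the side opposite the tumor, in 16 libraries with 4 per group. All mice were C57BL/6N females (C57BL/6NCrl in the study's methods), and all received E0771 cells, a mouse mammary cancer line, in the 4th mammary fat pad 22 weeks after they were randomized to diet. CON-LFD mice ate the control low-fat diet D12450J. The other groups first became obese on D12492, a 60% high-fat diet, and then either kept eating it (DIO-HFD) or lost weight. DIO-LFD mice lost weight on D12450J alone, and DIO-VSG mice on D12450J after vertical sleeve gastrectomy, an operation that removes a large part of the stomach. CON-LFD, DIO-HFD and DIO-LFD mice had a sham operation, so DIO-VSG and DIO-HFD differ in both surgery and diet. Animal numbers distinguish the libraries within each group, and the values describe the whole tissue, in which fewer cells of a type and less RNA per cell cannot be told apart. Libraries held 46907377 to 57610899 reads counted to genes. DIO-HFD replicate 4 stood apart in keratinocyte markers (up to 10800 summed normalized counts in DIO-HFD, against at most 1020 in any other group) and DIO-LFD replicate 4 in skeletal muscle markers (up to 137000, against at most 28800). DIO-LFD replicate 1 stood apart in erythroid markers (up to 462000, against at most 55700). Without the first 2 of these libraries, and without all 3, 0 of the 8 genes passed the adjusted threshold in any comparison. These fits called 0 and at most 5 of the 21218 genes tested in any comparison, so this 0 says little about the 8 genes.

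Cells make cholesterol from acetyl-CoA through mevalonate, isoprenoids, squalene and lanosterol. SREBP2, the protein encoded by Srebf2, is held in the endoplasmic reticulum by INSIG proteins when sterols are plentiful, and is cleaved and enters the nucleus to drive synthesis and uptake genes when they are scarce. Adipose tissue stores a large pool of free cholesterol in its fat cells and takes much of it from lipoproteins. Genes of fatty acid synthesis are targets of the related factor SREBP1 and of ChREBP.

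Promoter windows are shown for the members whose levels moved together across libraries and for Hmgcs1, the 1 member whose window held the sterol response element pattern searched for. Each window runs from 250 bases before to 50 bases after the annotated start in RefSeq (GRCm38.p6), 5′ to 3′ on the strand of the gene, and 5 of the 8 members were in that set (Srebf2, Hmgcs1, Idi1, Lss and Cyp51). Capitals mark the sterol response element core TCACNCCAC and the NF-Y box CCAAT on either strand (ATTGG on the opposite strand).
Hmgcs1 chr13:119690101-119690400, plus strand: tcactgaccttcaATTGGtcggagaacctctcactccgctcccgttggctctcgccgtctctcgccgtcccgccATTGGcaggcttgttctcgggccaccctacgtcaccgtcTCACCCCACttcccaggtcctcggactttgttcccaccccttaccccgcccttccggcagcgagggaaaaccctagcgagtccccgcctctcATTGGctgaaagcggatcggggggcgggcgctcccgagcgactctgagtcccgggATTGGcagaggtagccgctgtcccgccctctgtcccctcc
Idi1 chr13:8885356-8885655, plus strand: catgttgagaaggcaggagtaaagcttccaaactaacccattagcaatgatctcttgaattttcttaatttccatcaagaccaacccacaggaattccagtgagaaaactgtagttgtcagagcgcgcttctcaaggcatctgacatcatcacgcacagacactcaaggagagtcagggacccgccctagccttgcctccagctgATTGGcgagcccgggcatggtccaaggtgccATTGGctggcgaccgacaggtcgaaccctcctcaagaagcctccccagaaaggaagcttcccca
Lss chr10:76531355-76531654, plus strand: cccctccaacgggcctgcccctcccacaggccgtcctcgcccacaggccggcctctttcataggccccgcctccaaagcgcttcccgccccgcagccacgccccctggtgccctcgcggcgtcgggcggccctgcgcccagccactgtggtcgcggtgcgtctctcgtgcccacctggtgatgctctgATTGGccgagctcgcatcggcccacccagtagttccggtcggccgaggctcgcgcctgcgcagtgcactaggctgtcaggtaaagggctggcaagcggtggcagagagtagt
Cyp51 chr5:4104648-4104947, minus strand: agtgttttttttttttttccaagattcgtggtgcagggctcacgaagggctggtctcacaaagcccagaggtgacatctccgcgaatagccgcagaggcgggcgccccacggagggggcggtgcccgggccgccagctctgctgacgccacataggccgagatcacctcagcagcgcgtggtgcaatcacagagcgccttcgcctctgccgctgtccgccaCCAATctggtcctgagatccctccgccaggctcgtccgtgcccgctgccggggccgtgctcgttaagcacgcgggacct
TCACNCCAC was the only form of the sterol response element searched for. A window without it may still hold a site bound by SREBPs. This pattern was found in 1 of the 5 windows (Hmgcs1, with its first base at −137 relative to the start) and in 1.24% of all 32851 windows of the same length. CCAAT, the site of the SREBP cofactor NF-Y, was found in 5 of 5 member windows and in 37.4% of all windows, and GGGCGG, the Sp1 box, in 5 of 5 and in 35.7%. No match of 1 motif overlapped a match of another in these windows. Read on the strand of the gene alone, CCAAT was in 1 of the 5, that of Cyp51, and in 21.1% of all windows. Among 45 other genes of cholesterol handling, 36 had a window, of which 0 held the core, 23 held CCAAT and 27 held GGGCGG.

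Per kilobase of the longest coding transcript, Hmgcs1 was the most abundant of the 8, with a median of 2520 normalized counts per kb over the 16 libraries, followed by Srebf2 (1200) and Fdps (946). Fdft1 (610), Idi1 (471), Sqle (449), Lss (396) and Cyp51 (284) were lower. The ranges of neighbors in this order overlapped: Hmgcs1 spanned 1040 to 4980 per kb and Srebf2 743 to 1430, while Lss spanned 215 to 795 and Cyp51 240 to 465.

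The comparisons asked whether the expression of these genes differed with obesity and with weight loss by diet or by surgery. Only DIO-HFD mice were still on the high-fat diet. In comparisons with DIO-HFD, obesity or weight loss therefore cannot be told apart from the diet eaten. In a limma fit of all 16 libraries, 0 of the 8 genes had an adjusted P value below 0.05 in any of the 6 comparisons between groups. Of the 48 differences, 1 had an unadjusted P value below 0.05 and 47 had a 95% interval that included 0. The 4 libraries of 1 group overlapped with those of the other in all 48. Leaving out 1 library moved 45 of the 48 by more than 1.5 times or across 0. The same count was not made over all genes. In each comparison 4 to 6 of the 8 differences were below their SE, where a small shift is a large ratio. The mean of the 8 genes on a log2 scale, centered on all libraries, was −0.03 ± 0.29 (SD, n = 4) in CON-LFD, −0.15 ± 0.34 in DIO-HFD, 0.12 ± 0.39 in DIO-LFD and 0.07 ± 0.25 in DIO-VSG.

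**Figure D1:**
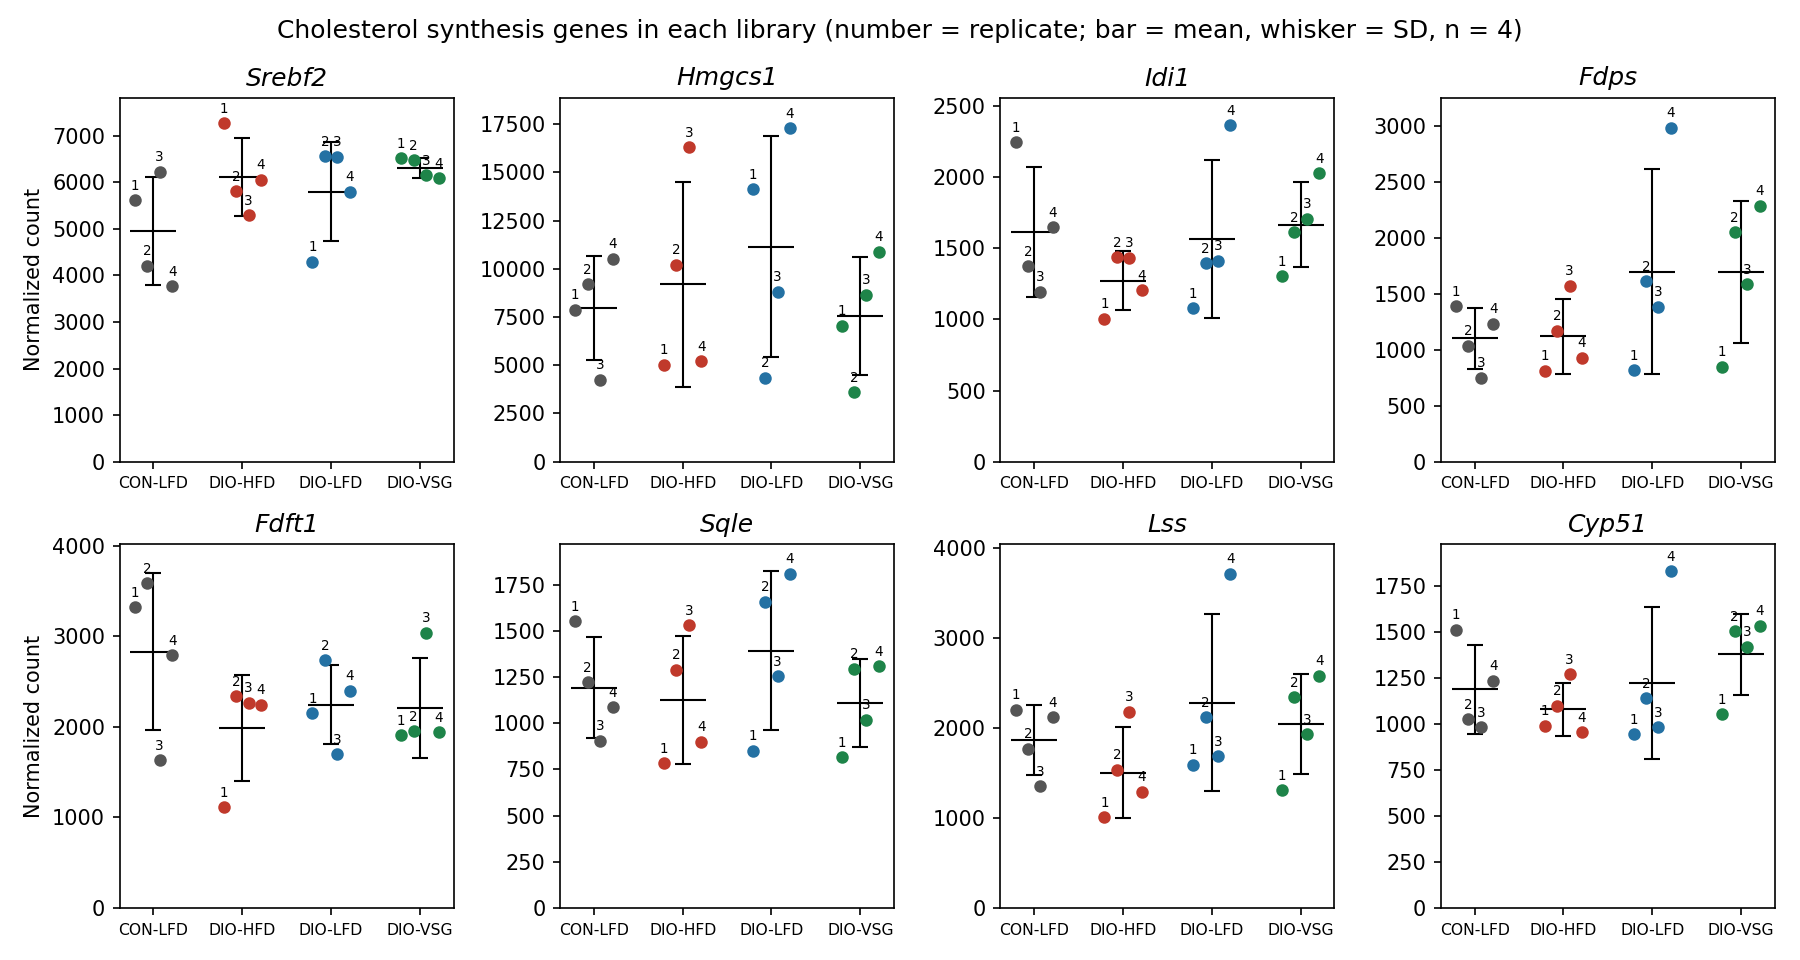
Normalized count (y axis, from 0) of each of the 8 genes in the 16 libraries by group; points are libraries labeled by replicate number, and bars and whiskers are the mean and SD of 4 libraries. The groups overlap for every gene, and DIO-LFD replicate 4 is the highest of the 16 libraries for 6 of the 8 genes.

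Srebf2 (ENSMUSG00000022463.8, chr15:82147181-82205379, plus strand, 19 exons in its longest coding transcript), which encodes the transcription factor SREBP2, had 5616, 4206, 6231 and 3774 normalized counts in CON-LFD replicates 1 to 4. It had 7265, 5813, 5290 and 6054 in DIO-HFD, 4296, 6561, 6547 and 5798 in DIO-LFD, and 6514, 6478, 6158 and 6084 in DIO-VSG. The DIO-VSG libraries were close to one another (6310 ± 219, SD, n = 4), whereas CON-LFD ranged more widely (4960 ± 1160). Relative to CON-LFD, Srebf2 differed by 0.38 ± 0.17 (log2, SE) in DIO-VSG (unadjusted P = 0.0394, limma adjusted P = 0.27), by 0.32 ± 0.17 in DIO-HFD (adjusted P = 0.437) and by 0.24 ± 0.17 in DIO-LFD (adjusted P = 0.873). Without CON-LFD replicate 4, the DIO-VSG difference was 0.26 (limma adjusted P = 0.538) and no longer passed the unadjusted threshold of 0.05, which was also missed when any of DIO-VSG replicates 2, 3 and 4 or the second CON-LFD library was left out. The difference of DIO-HFD ranged from 0.20 (without CON-LFD replicate 4) to 0.44 (without CON-LFD replicate 3). Between the obese and the weight loss groups the differences were smaller, −0.08 ± 0.17 in DIO-LFD and 0.06 ± 0.17 in DIO-VSG relative to DIO-HFD (adjusted P = 0.955 and 0.876), with 95% intervals of −0.44 to 0.27 and −0.30 to 0.41. The microRNA gene Mir33 lies within Srebf2 and was not analyzed here.

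Hmgcs1 (ENSMUSG00000093930.2, chr13:119690379-119708260, plus strand, 11 exons), which encodes the cytosolic HMG-CoA synthase at the head of the mevalonate pathway, was the most variable of the 8. It had 7885, 9199, 4242 and 10510 normalized counts in CON-LFD replicates 1 to 4 and 5032, 10220, 16300 and 5202 in DIO-HFD. In DIO-LFD it had 14130, 4355, 8806 and 17270, and in DIO-VSG 7051, 3614, 8664 and 10890. Within each group the libraries differed by 2-fold or more, and the highest of the 16 (DIO-LFD replicate 4) was 4.78 times the lowest (DIO-VSG replicate 2). The differences between groups were small beside this spread (within-group SD 0.75, log2), from −0.49 ± 0.49 (DIO-VSG relative to DIO-LFD, limma adjusted P = 0.657) to 0.38 ± 0.49 (DIO-LFD relative to CON-LFD, adjusted P = 0.909). Relative to DIO-HFD, the 95% interval ran from −0.78 to 1.33 in DIO-LFD and from −1.27 to 0.84 in DIO-VSG. The DIO-LFD difference of 0.28 was 0.00 without DIO-LFD replicate 4 and −0.61 without the 3 libraries that stood apart in markers, and the DIO-VSG difference of −0.21 was 0.12 without DIO-HFD replicate 3.

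Idi1 (ENSMUSG00000058258.14, chr13:8885501-8892451, plus strand, 5 exons), the isomerase that makes dimethylallyl diphosphate, had 2245, 1373, 1196 and 1649 normalized counts in CON-LFD replicates 1 to 4. It had 1005, 1440, 1435 and 1208 in DIO-HFD, 1080, 1396, 1414 and 2368 in DIO-LFD, and 1306, 1616, 1709 and 2031 in DIO-VSG. DIO-HFD was lowest on average (1270 ± 208) and DIO-VSG highest (1670 ± 298), with 3 of the 4 DIO-VSG libraries above every DIO-HFD library. The difference of DIO-VSG from DIO-HFD was 0.39 ± 0.24 (log2, SE, 95% interval −0.12 to 0.90, limma adjusted P = 0.437), and that of DIO-HFD from CON-LFD was −0.32 ± 0.24 (adjusted P = 0.609), or −0.15 without CON-LFD replicate 1 and −0.45 without CON-LFD replicate 3. Idi1 shares 684 bases with the processed pseudogene Gm13502, identical throughout, which had 144 to 352 normalized counts, so reads may be split between them.

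Fdps (ENSMUSG00000059743.12, chr3:89093588-89101959, minus strand, 11 exons), the farnesyl diphosphate synthase that supplies both sterols and protein prenylation, had 1389, 1038, 751.8 and 1232 normalized counts in CON-LFD replicates 1 to 4 and 814.3, 1172, 1572 and 930 in DIO-HFD. After weight loss it had 817.8, 1612, 1384 and 2985 in DIO-LFD and 848.5, 2052, 1589 and 2289 in DIO-VSG. In both weight loss groups replicate 1 was low, near the bottom of DIO-HFD, and the other libraries were mostly higher. Relative to DIO-HFD, Fdps differed by 0.49 ± 0.38 in DIO-LFD and by 0.55 ± 0.38 in DIO-VSG (95% intervals −0.32 to 1.30 and −0.26 to 1.35, limma adjusted P = 0.826 and 0.474), and DIO-HFD differed from CON-LFD by 0.02 ± 0.38 (adjusted P = 0.99). The difference in DIO-LFD was 0.17 without DIO-LFD replicate 4 and 0.79 without DIO-LFD replicate 1, and that in DIO-VSG was 0.37 without DIO-VSG replicate 4 and 0.85 without DIO-VSG replicate 1. Fdps shares 1062 bases at 98.9% identity with the pseudogene Gm3571 (16.6 to 129 normalized counts) and 1066 bases at 96.7% with Gm5873 (4.15 to 47). It also shares 929 identical bases with Gm43738, a protein-coding gene that overlaps it on the same strand and has no values among the genes of the table. Of 6 such genes found for Fdps, 2 were among the genes of the table.

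Fdft1 (ENSMUSG00000021273.10, chr14:63145150-63179578, minus strand, 10 exons), the squalene synthase that commits farnesyl diphosphate to sterols, had 3319, 3584, 1629 and 2789 normalized counts in CON-LFD replicates 1 to 4 and 1112, 2337, 2268 and 2243 in DIO-HFD. In DIO-LFD it had 2148, 2738, 1700 and 2400, and in DIO-VSG 1910, 1953, 3039 and 1939. CON-LFD replicates 1, 2 and 4 were above every DIO-HFD library, while CON-LFD replicate 3 was below 3 of them. Fdft1 had the most negative difference of the 8 between DIO-HFD and CON-LFD (−0.51 ± 0.28, log2, SE, 95% interval −1.11 to 0.09, unadjusted P = 0.0922, limma adjusted P = 0.468), and leaving out 1 library moved it from −0.75 (without CON-LFD replicate 3, unadjusted P = 0.012, adjusted P = 0.14) to −0.25 (without DIO-HFD replicate 1, unadjusted P = 0.34, adjusted P = 0.749). The weight loss groups differed from DIO-HFD by 0.21 ± 0.28 and 0.18 ± 0.28 (adjusted P = 0.927 for DIO-LFD and 0.749 for DIO-VSG). Fdft1 overlaps the abundant gene Ctsb on the opposite strand over 774 bases of transcript, and Ctsb had 41500 to 99700 normalized counts.

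Sqle (ENSMUSG00000022351.14, chr15:59315077-59331192, plus strand, 11 exons), the squalene epoxidase and a rate-limiting step of the sterol branch, had 1553, 1224, 905.9 and 1086 normalized counts in CON-LFD replicates 1 to 4. It had 783.8, 1290, 1531 and 901.3 in DIO-HFD, 852.7, 1659, 1254 and 1810 in DIO-LFD, and 815.3, 1296, 1019 and 1310 in DIO-VSG. Each group held at least 1 library below 1000 and at least 1 above 1300. The differences from DIO-HFD were 0.30 ± 0.27 in DIO-LFD and 0.00 ± 0.27 in DIO-VSG (limma adjusted P = 0.867 and 0.994), the latter with a 95% interval of −0.57 to 0.58. The former was 0.14 without DIO-HFD replicate 1 and 0.52 without DIO-LFD replicate 1.

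Lss (ENSMUSG00000033105.12, chr10:76531588-76557138, plus strand, 22 exons), the lanosterol synthase that closes the sterol rings, had 2202, 1766, 1349 and 2119 normalized counts in CON-LFD replicates 1 to 4. It had 1005, 1536, 2180 and 1289 in DIO-HFD, 1589, 2120, 1687 and 3709 in DIO-LFD, and 1307, 2337, 1929 and 2577 in DIO-VSG. All 4 DIO-LFD libraries were above 3 of the 4 DIO-HFD libraries, and DIO-HFD replicate 3 lay among them. Relative to DIO-HFD, Lss had the largest difference of the 8 in DIO-LFD (0.57 ± 0.30, log2, SE, 95% interval −0.07 to 1.21, unadjusted P = 0.0774, limma adjusted P = 0.66), and it differed by 0.45 ± 0.30 in DIO-VSG (adjusted P = 0.459). The first of these was 0.31 without DIO-LFD replicate 4 and 0.77 without DIO-HFD replicate 3. Between DIO-HFD and CON-LFD the difference was −0.34 ± 0.30 (adjusted P = 0.678). Without DIO-HFD replicate 1 this was −0.17 and the DIO-VSG difference 0.28, and without DIO-HFD replicate 3 they were −0.54 and 0.65.

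Cyp51 (ENSMUSG00000001467.5, chr5:4081145-4104746, minus strand, 10 exons), the lanosterol demethylase, had 1509, 1023, 979.7 and 1234 normalized counts in CON-LFD replicates 1 to 4. It had 990.1, 1098, 1269 and 952.9 in DIO-HFD, 943.3, 1138, 979.6 and 1829 in DIO-LFD, and 1052, 1503, 1418 and 1531 in DIO-VSG. DIO-VSG replicates 2, 3 and 4 were above every DIO-HFD library, and DIO-VSG replicate 1 lay within their range. The difference of DIO-VSG from DIO-HFD was 0.35 ± 0.21 (log2, SE, 95% interval −0.09 to 0.79, limma adjusted P = 0.426), and those of DIO-LFD from DIO-HFD and of DIO-HFD from CON-LFD were 0.14 ± 0.21 and −0.13 ± 0.21 (adjusted P = 0.94 and 0.839). Cyp51 overlaps Akap9 on the opposite strand, which had 5750 to 7210 normalized counts.

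By comparison, DIO-HFD relative to CON-LFD had 0 of 8 genes called after adjustment and 0 with an unadjusted limma P value below 0.05, against 0.0377% and 12.9% of the 21218 genes tested. Their median log2 difference was −0.12 (from −0.51 for Fdft1 to 0.32 for Srebf2), against 0.02 over all genes, and it was 0.03 when libraries were scaled to their totals. Of the 8 differences, 4 were below their SE. The groups overlapped for all 8, and 4.76% of all genes had groups that did not overlap.

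In DIO-LFD relative to DIO-HFD, 0 of 8 were called after adjustment and 0 had an unadjusted P value below 0.05, against 0% and 8.53% of all genes, and 0 had groups that did not overlap, against 4.51%. The median was 0.26 (all genes 0.01), from −0.08 for Srebf2 to 0.57 for Lss, and 4 of the 8 differences were below their SE. Without DIO-LFD replicate 4, the library with the highest skeletal muscle markers, the median was 0.09.

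Relative to DIO-HFD, DIO-VSG also had 0 of 8 called after adjustment and 0 with an unadjusted P value below 0.05, against 0% and 13.2% of all genes, and 0 without overlap, against 6.59%. The median was 0.26 (all genes 0.02), from −0.21 for Hmgcs1 to 0.55 for Fdps, and 4 of the 8 differences were below their SE. This median ranged from 0.20 to 0.36 when 1 library was left out. The comparisons of DIO-LFD and of DIO-VSG with DIO-HFD share the DIO-HFD libraries.

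**Figure D2:**
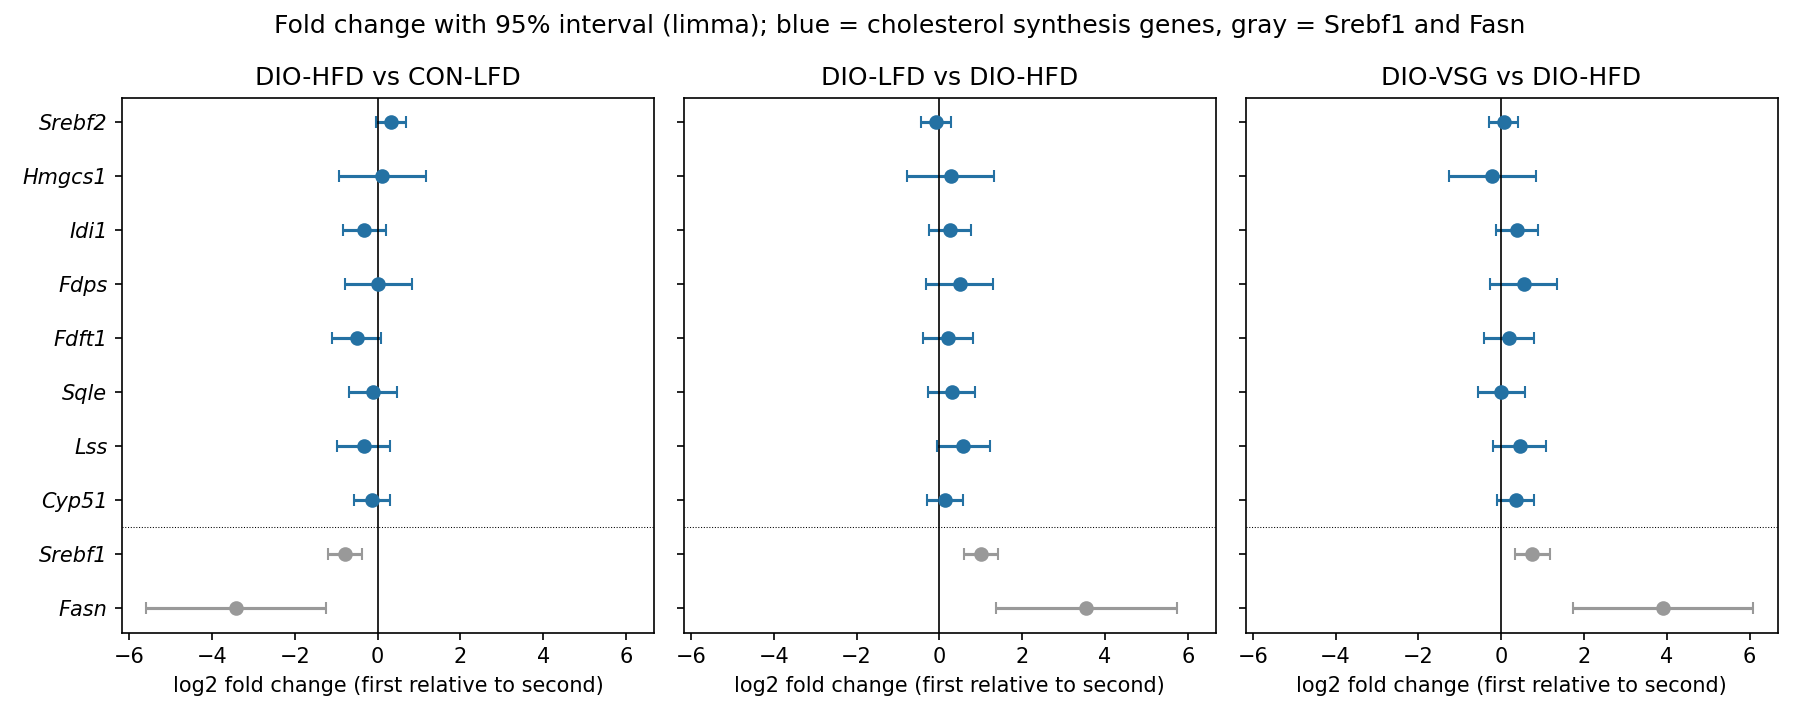
Log2 fold change (x axis, first group relative to second) with 95% interval from limma for the 8 genes (blue) and for Srebf1 and Fasn (gray) in the 3 comparisons with DIO-HFD. All intervals of the 8 genes include 0, and those of Srebf1 and Fasn do not.

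DIO-VSG and DIO-LFD, the 2 routes of weight loss, differed for 0 of 8 genes by either threshold, against 0% (adjusted) and 9.71% (unadjusted) of all genes, and 0 of 8 had groups without overlap, against 18.8%. The median was 0.01 (all genes −0.02), from −0.49 for Hmgcs1 to 0.21 for Cyp51, and the 95% intervals of the single genes reached as low as −1.54 (Hmgcs1) and as high as 0.86 (Fdps). The Cyp51 difference ranged from 0.10 without DIO-LFD replicate 1 (limma adjusted P = 0.851) to 0.42 without DIO-LFD replicate 4 (unadjusted P = 0.029, adjusted P = 0.618).

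Between DIO-LFD and CON-LFD, both on the low-fat diet, 0 of 8 passed either threshold, against 0.00471% and 6.26% of all genes, and 0 were without overlap, against 3.53%, with a median of 0.21 (0.01 without DIO-LFD replicate 4 and 0.31 without CON-LFD replicate 1). Between DIO-VSG and CON-LFD, 0 of 8 passed the adjusted threshold, against 0%, 1 (Srebf2) had an unadjusted P value below 0.05, against 17.8%, and 0 were without overlap, against 7.02%, with a median of 0.09 (−0.05 without CON-LFD replicate 3 and 0.24 without DIO-VSG replicate 1). These shares of the 8 genes were not above those of all genes.

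Library quality weights, an alternative limma setting that gives more variable libraries less influence, changed the count of members called. With them, Idi1 differed between DIO-HFD and CON-LFD by −0.64 (adjusted P = 0.0382), Sqle and Lss between DIO-LFD and DIO-HFD by 0.64 and 0.78 (adjusted P = 0.0458 and 0.0474), and Cyp51 between DIO-VSG and DIO-HFD by 0.50 (adjusted P = 0.0396). The weights ranged from 0.22 (DIO-HFD replicate 3) to 10.92 (DIO-HFD replicate 4), so the DIO-HFD mean rested mostly on replicate 4, the library with the highest keratinocyte markers. Under these weights 4196, 1811 and 3739 genes of the table passed the threshold in the 3 comparisons (19.8%, 8.54% and 17.6%), against 8, 0 and 0 without them.

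5 of the enzymes varied together from library to library. Sqle, Idi1, Fdps, Lss and Cyp51 had Pearson r of 0.67 to 0.91 in their 10 pairs over the 16 libraries, and 0.80 to 0.95 after the group means were removed. Fdft1 was less like them (r = 0.28 to 0.50), as was Hmgcs1 with the 6 later enzymes (0.29 to 0.46). Srebf2 was unlike the 7 enzymes, with r of −0.57 (Fdft1) and −0.54 (Hmgcs1) at one end and 0.12 (Fdps) at the other. These correlations are descriptive and given without a P value, since all genes of a library share its RNA, depth and tissue composition.

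**Figure D3:**
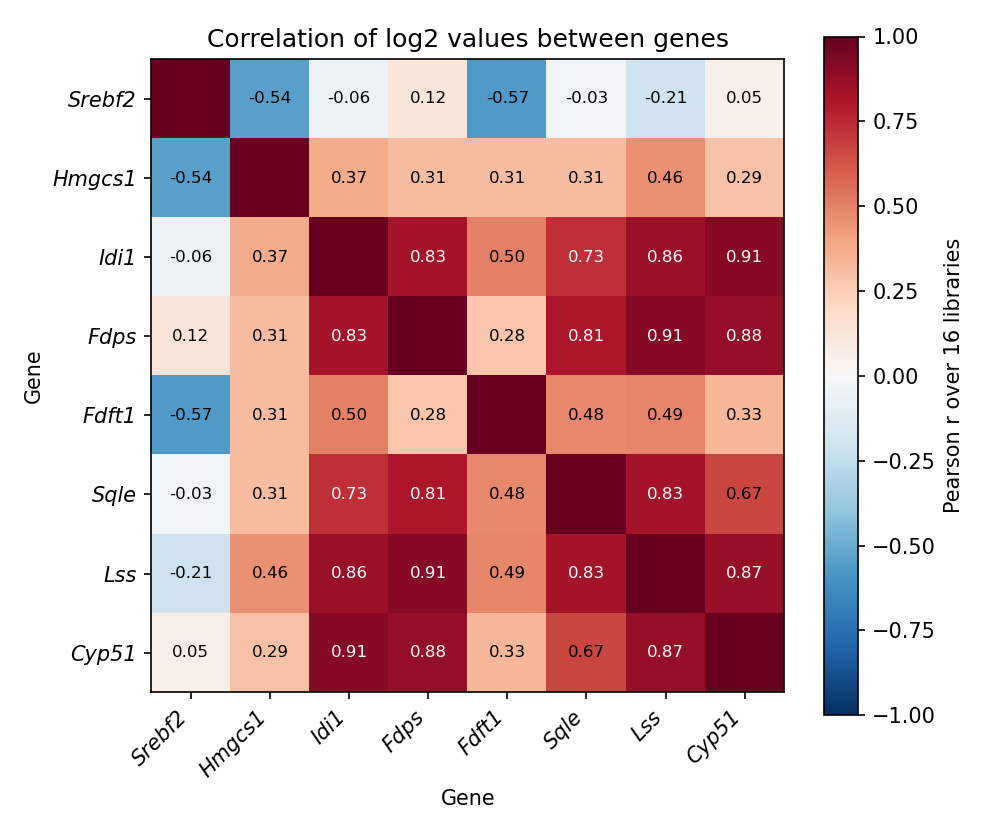
Pearson r of log2 values for each pair of the 8 genes (both axes list the genes) over 16 libraries, printed in each square. The block of Idi1, Fdps, Sqle, Lss and Cyp51 lies between 0.67 and 0.91, while the row of Srebf2 lies between −0.57 and 0.12.

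A few libraries stood at the extremes for several of the genes. DIO-LFD replicate 4 was the highest of the 16 for Hmgcs1, Sqle, Idi1, Fdps, Lss and Cyp51, and its mean over the 8 genes was 0.67 on the centered log2 scale. DIO-HFD replicate 1 was the lowest for Sqle, Idi1, Fdft1 and Lss but the highest for Srebf2, with a mean of −0.53. Over all libraries the highest value was 1.92 times the lowest for Srebf2, 1.94 for Cyp51, 2.31 for Sqle, 2.36 for Idi1, 3.22 for Fdft1, 3.69 for Lss and 3.97 for Fdps. Within groups their SD ranged from 0.24 (Srebf2) to 0.75 (Hmgcs1) on the log2 scale, against a median of 0.36 for all genes tested.

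Of 14683 genes outside the lists with a mean of at least 100 normalized counts, the 5 whose log2 values most resembled the mean of the 8 were Gm13502 (r = 0.933), Cyb5b (0.918), Ctsd (0.898), Tpmt (0.897) and Golga7b (0.895), over 16 libraries. Gm13502 is the pseudogene identical to part of Idi1, and reads from that stretch cannot be told apart. Cyb5b encodes an outer mitochondrial membrane cytochrome and Ctsd a lysosomal protease.

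Markers of other cells moved with Srebf2 and Hmgcs1. All 8 adipocyte markers (among them Adipoq and Plin1) exceeded 3 reads in at least 1 library, and their summed level was 477000 to 748000 normalized counts in CON-LFD, 249000 to 719000 in DIO-HFD, 513000 to 980000 in DIO-LFD and 347000 to 483000 in DIO-VSG. The score of these markers correlated with Srebf2 at r = −0.82, with Hmgcs1 at 0.66 and with Fdft1 at 0.60. All 8 B cell markers (among them Cd79a and Ms4a1) were likewise detected, with sums of 258 to 64600 in CON-LFD, 976 to 85900 in DIO-HFD, 15400 to 35000 in DIO-LFD and 59300 to 68800 in DIO-VSG. Their score correlated with Srebf2 at 0.78, with Hmgcs1 at −0.50 and with Fdft1 at −0.53, and all 4 DIO-VSG libraries were high in it (1.85 to 2.08).

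When the limma fit included the B cell score, the difference of Srebf2 between DIO-VSG and CON-LFD was 0.08 ± 0.14 (adjusted P = 0.98), and with the adipocyte score it was 0.13 ± 0.11 (adjusted P = 0.824), against 0.38 ± 0.17 without them. Under the B cell score Fdft1 differed by 0.06 between these groups, against −0.32. The score of the 8 T cell markers correlated with Srebf2 at 0.74, and that of the 4 endothelial markers with Hmgcs1 at 0.59. Fdft1 correlated most with the scores of thermogenic adipocyte markers (0.73) and of the sebaceous gland (0.70). Summed thermogenic markers, all 5 of them detected, were 1730 to 46700 in CON-LFD, 210 to 760 in DIO-HFD, 2290 to 7920 in DIO-LFD and 748 to 34000 in DIO-VSG. Between DIO-HFD and CON-LFD, where Fdft1 differed by −0.51, the median of these 5 was −3.09, with 4 at an unadjusted limma P value below 0.05 and 0 called after adjustment. Of all genes, 12.9% and 0.0377% passed these thresholds. The median of the 3 sebaceous gland markers tested was −1.47, with 2 at an unadjusted limma P value below 0.05 and 0 called after adjustment. The part of either set in the Fdft1 difference was not tested. The mean of the 8 genes correlated less with the adipocyte (0.31) and B cell (−0.21) scores than with that of skeletal muscle (0.52), which ranged from 1220 to 137000 summed counts and was highest in DIO-LFD replicate 4.

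**Figure D4:**
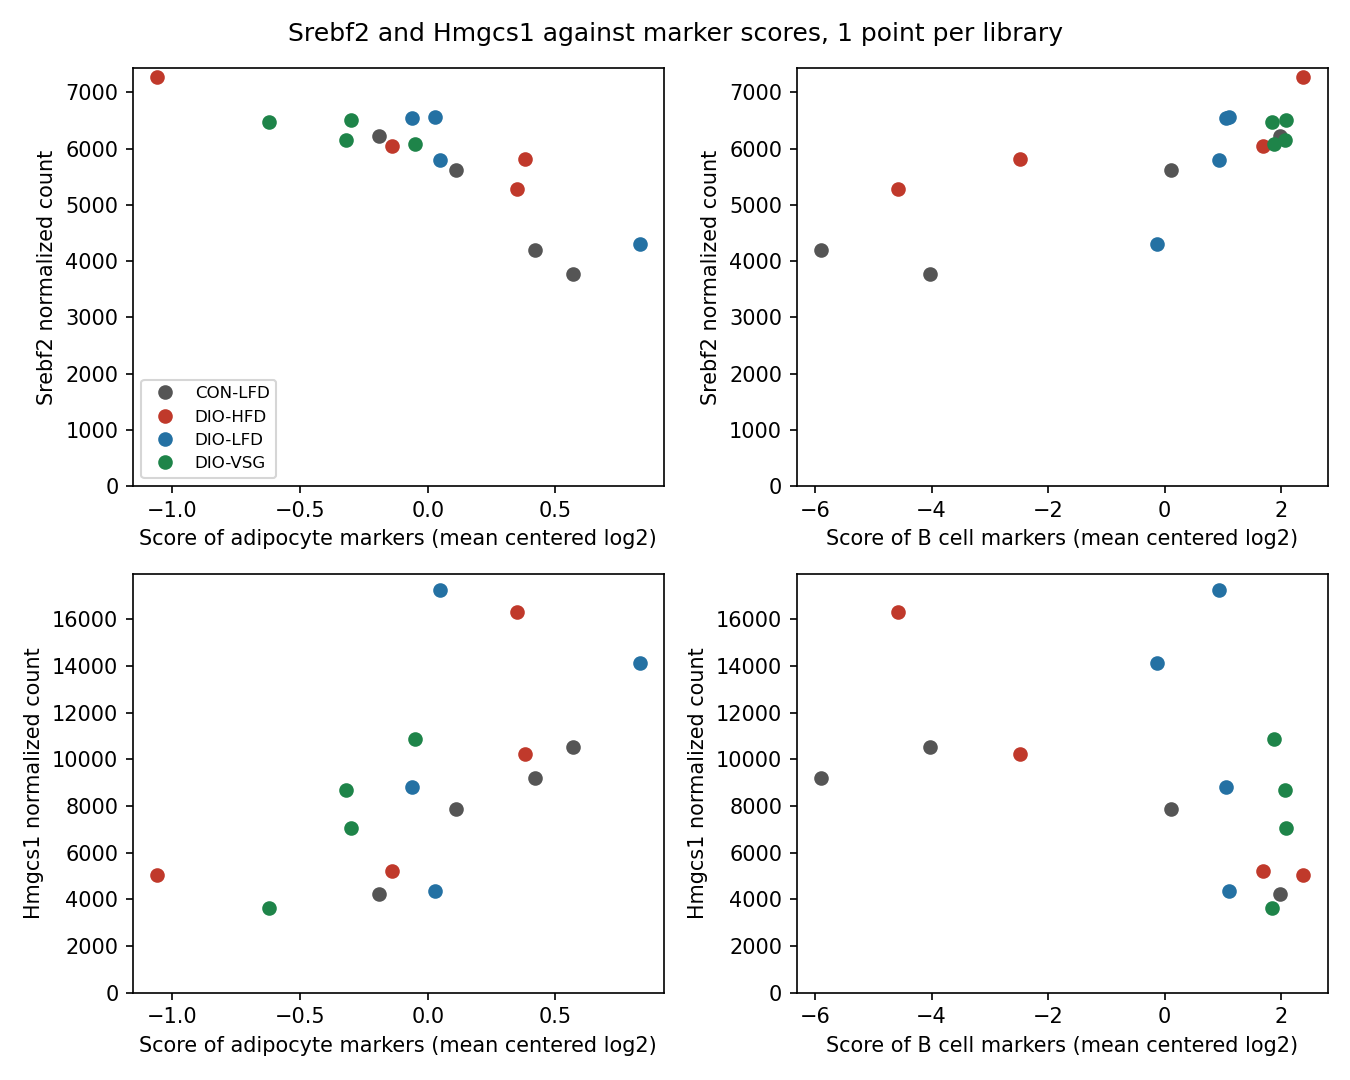
Normalized count of Srebf2 and Hmgcs1 (y axes, from 0) against the score of the adipocyte markers and of the B cell markers (x axes, mean of centered log2 values), with 1 point per library colored by group. Srebf2 is low where the adipocyte score is high (r = −0.82) and high where the B cell score is high (r = 0.78), and the 4 DIO-VSG libraries lie together at the high end of the B cell score.

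Other genes of the pathway were taken from 5 lists with 45 genes, all of which were tested. None of the 45 passed the adjusted threshold in any of the 6 comparisons, with the smallest limma adjusted P values at 0.2 (DIO-HFD relative to CON-LFD), 0.296 (DIO-LFD relative to DIO-HFD) and 0.257 (DIO-VSG relative to DIO-HFD). With an unadjusted P value below 0.05, 2 differences were positive and 4 negative in the first, 6 positive and 2 negative in the second, and 4 positive and 2 negative in the third, against 12.9%, 8.53% and 13.2% of all genes in either direction. Library quality weights called 10, 6 and 7 of the 45 in these comparisons, against 19.8%, 8.54% and 17.6% of all genes under the same weights, and 10 between DIO-VSG and CON-LFD, against 19.9%. Among them were Acat2, Pmvk and Tm7sf2 in both weight loss groups, Mbtps1 and Lrp1 in DIO-VSG, and Stard4, Insig1 and Nceh1 in DIO-HFD relative to CON-LFD. Apart from these weights, Lbr, a sterol reductase of the inner nuclear membrane named after its values were seen, was called between DIO-VSG and DIO-LFD in the fit of these groups alone (0.56, limma adjusted P = 0.0143), which called 7.22% of all genes. Lbr and Ch25h were called between DIO-VSG and CON-LFD without CON-LFD replicate 3 (0.93 and 1.76, adjusted P = 0.0479 and 0.0485), a fit that called 4.11% of all genes.

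Among 13 other enzymes of cholesterol synthesis, 4 had a positive difference in DIO-LFD and 4 in DIO-VSG relative to DIO-HFD at an unadjusted P value below 0.05, against 8.53% and 13.2% of all genes in either direction. Acat2, which makes the acetoacetyl-CoA that Hmgcs1 uses, differed by 1.52 ± 0.31 in DIO-LFD (unadjusted P = 0.000214, limma adjusted P = 0.296) and 0.96 ± 0.31 in DIO-VSG (adjusted P = 0.274). Its values were 1028, 1469, 1747 and 1839 normalized counts in DIO-HFD replicates 1 to 4 and 6485, 3821, 2559 and 5197 in DIO-LFD, without overlap, and it shares 1477 bases at 97.7% identity with Acat3 (at most 1010 normalized counts) and 445 bases at 98.7% with Tcp1 (at most 10900). The difference in DIO-LFD was 1.32 without DIO-LFD replicate 1, the library highest in Acat2 and in erythroid markers. Pmvk, the phosphomevalonate kinase, differed by 0.78 ± 0.26 and 0.72 ± 0.26, Tm7sf2, a sterol reductase, by 0.74 ± 0.27 (0.48 without DIO-LFD replicate 4) and 0.63 ± 0.27, and Nsdhl, a sterol dehydrogenase named after its values were seen, by 0.91 ± 0.41 and 0.89 ± 0.41. Between DIO-HFD and CON-LFD, 2 of the 13 had a negative difference at an unadjusted P value below 0.05 (12.9% of all genes), Acat2 (−0.86 ± 0.31) and Tm7sf2 (−0.58 ± 0.27). The median of the 13 was −0.03 between DIO-HFD and CON-LFD, and 0.07 in DIO-LFD and 0.09 in DIO-VSG relative to DIO-HFD. In these last 2 comparisons the medians were 2.41 and 2.35 for thermogenic adipocyte and 0.76 and 1.09 for sebaceous gland markers. They were −0.16 and −0.72 for macrophage and −0.50 and −0.83 for stromal markers. The part of these markers in the differences of the enzymes was not tested.

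Of 6 genes that control SREBP2, Mbtps1, the first protease that cleaves SREBPs, differed by −0.25 ± 0.07 in DIO-VSG relative to DIO-HFD (unadjusted P = 0.00318, limma adjusted P = 0.257), without overlap. Mbtps2, the second protease, differed by −0.04 ± 0.08 in DIO-LFD and 0.03 ± 0.08 in DIO-VSG relative to DIO-HFD (adjusted P = 0.955 and 0.854), and between DIO-HFD and CON-LFD by −0.11 ± 0.08 (adjusted P = 0.624), which was 0.04 when libraries were scaled to their totals. Insig1, which retains SREBPs in the endoplasmic reticulum and is itself a target of them, had a mean of 5200 normalized counts in DIO-HFD, 10300 in CON-LFD, 10700 in DIO-LFD and 9540 in DIO-VSG. Its differences of −0.93 ± 0.61, 0.86 ± 0.61 and 0.84 ± 0.61 were within its spread (adjusted P = 0.551, 0.794 and 0.493), as its libraries ranged 8.58-fold. Leaving out 1 library moved the first from −1.42 (without CON-LFD replicate 3) to −0.64 (without DIO-HFD replicate 1), the second from 0.40 (without DIO-LFD replicate 4) to 1.26 (without DIO-LFD replicate 1) and the third from 0.48 (without DIO-VSG replicate 3) to 1.14 (without DIO-HFD replicate 3).

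Among 9 genes of uptake and trafficking, 1 had an unadjusted P value below 0.05 in each of the 3 comparisons with DIO-HFD, against 12.9%, 8.53% and 13.2% of all genes. Stard4, a sterol carrier in the cytosol, differed by 0.55 ± 0.14 between DIO-HFD and CON-LFD (unadjusted P = 0.00175, limma adjusted P = 0.2) and by −0.42 ± 0.14 in DIO-LFD relative to DIO-HFD (unadjusted P = 0.0105, adjusted P = 0.463), without overlap in either. Lrp1, an endocytic receptor for remnant lipoproteins, differed by −0.87 ± 0.27 in DIO-VSG relative to DIO-HFD (unadjusted P = 0.00635, adjusted P = 0.274). Lipa, the lysosomal acid lipase, differed by −0.36 ± 0.18 in the same comparison (adjusted P = 0.388). In that comparison all 6 macrophage, 4 stromal and 4 endothelial markers also had negative differences, with medians of −0.72, −0.83 and −0.54 and with 0, 1 and 3 at an unadjusted P value below 0.05. The summed levels in DIO-HFD and DIO-VSG were 25000 to 27300 and 10000 to 27800 for macrophage, 68900 to 105000 and 29200 to 83000 for stromal, and 39000 to 61300 and 32900 to 34400 for endothelial markers, and their part in the differences of Lrp1 and Lipa was not tested.

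In the lists for efflux and esterification (9 genes) and for the nonsterol branch (8 genes), 1 and 2 genes passed the unadjusted threshold of 0.05 between DIO-HFD and CON-LFD, against 12.9% of all genes. They were Nceh1, a cholesteryl ester hydrolase (0.68 ± 0.28, limma adjusted P = 0.333), Pdss2, which builds the side chain of coenzyme Q (−0.37 ± 0.11, adjusted P = 0.237), and Fnta, a farnesyltransferase subunit (−0.27 ± 0.11, adjusted P = 0.333). In DIO-LFD relative to DIO-HFD, Pdss2 differed by 0.34 ± 0.11, Nr1h3, the sterol receptor LXR alpha, by 0.52 ± 0.22 and Pggt1b, a geranylgeranyl transferase subunit, by −0.20 ± 0.09 (adjusted P = 0.456, 0.533 and 0.58). Nr1h3 differed by 0.27 without DIO-LFD replicate 1, the library highest in it and in erythroid markers, and Pggt1b by −0.11 without DIO-HFD replicate 3. Ch25h, which makes an oxysterol that blocks SREBP2 processing, differed by 0.95 ± 0.48 in DIO-VSG relative to DIO-HFD (adjusted P = 0.391), by 0.58 without DIO-HFD replicate 2, by 1.37 without DIO-HFD replicate 1 and by 0.29 with the B cell score in the fit.

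Fatty acid synthesis genes are given for scale, and their mean correlated with that of the 8 genes at r = 0.73 over the 16 libraries. Srebf1 had 13580, 14500, 8923 and 14320 normalized counts in CON-LFD replicates 1 to 4 and 5739, 7626, 7174 and 8827 in DIO-HFD. In DIO-LFD it had 11480, 18030, 14500 and 15030, and in DIO-VSG 9866, 10960, 15060 and 13750. Every DIO-HFD library was below every library of the other groups. The differences were −0.80 ± 0.19, 1.01 ± 0.19 and 0.75 ± 0.19 in the 3 comparisons (unadjusted P = 0.00106, 0.000133 and 0.00162, limma adjusted P = 0.182, 0.296 and 0.246), and without CON-LFD replicate 3 the first was −0.96 (adjusted P = 0.04, with 0.603% of all genes called). Fasn, the fatty acid synthase, differed by −3.42 ± 1.02, 3.55 ± 1.02 and 3.91 ± 1.02 (adjusted P = 0.237, 0.424 and 0.246). Of 31 alternative settings, 1 called Fasn in each comparison (limma adjusted P = 0.00777, 0.00632 and 0.003), and 2, 1 and 1 called Srebf1. In any setting at most 19.8%, 8.54% and 17.6% of all genes were called in these comparisons. The median of the 8 fatty acid genes was −2.04, 2.29 and 2.39, where that of Srebf2 and the 7 enzymes was −0.12, 0.26 and 0.26, and a test of that difference was not made.

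**Figure D5:**
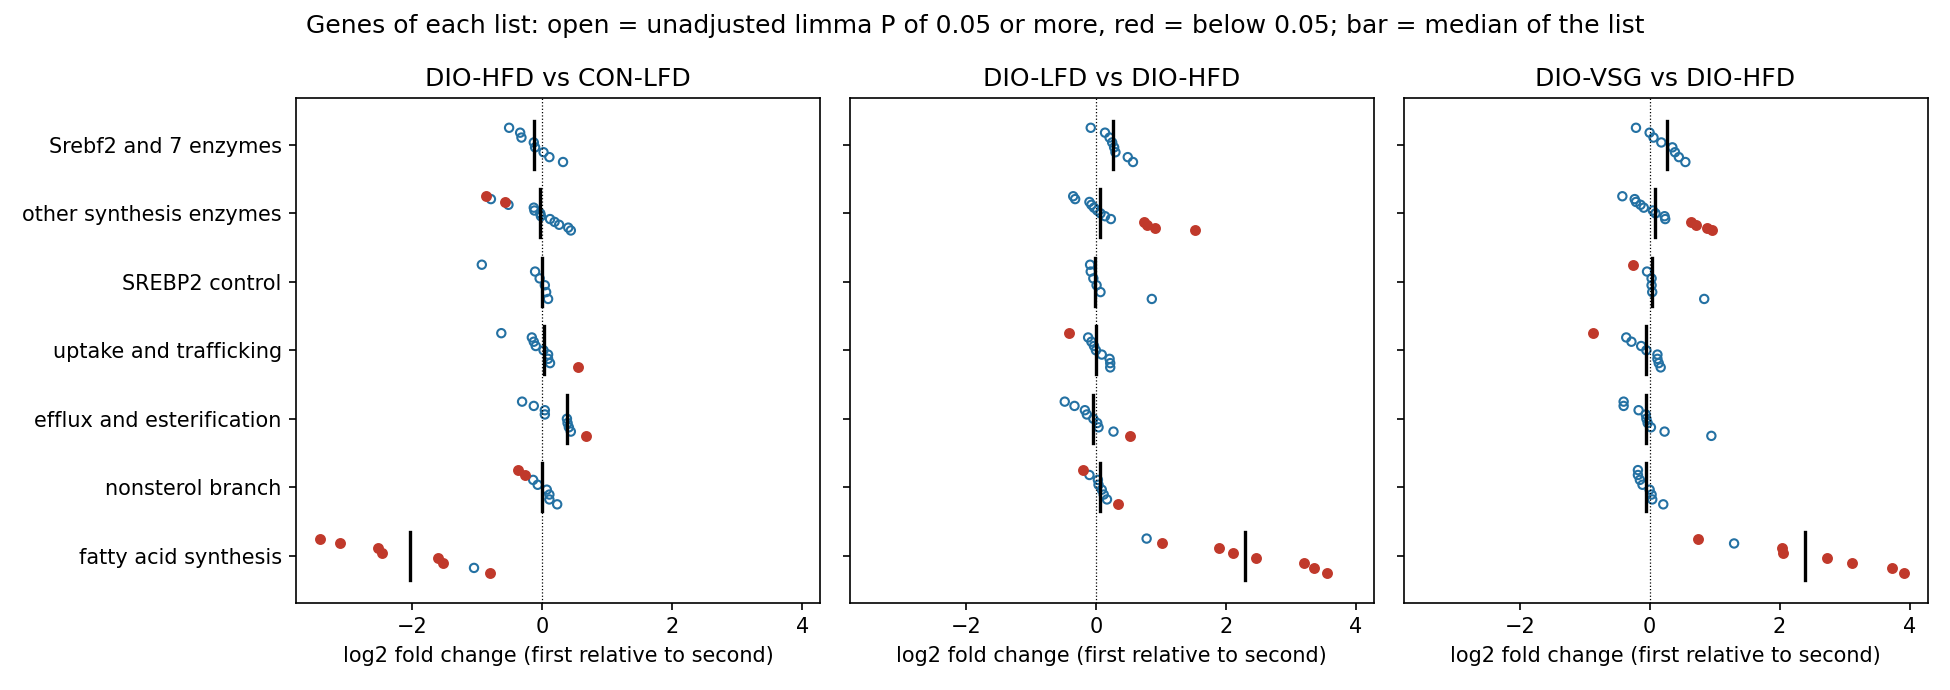
Log2 fold change (x axis, first group relative to second) of each gene in the 8 genes, 5 further lists of cholesterol genes and the fatty acid synthesis list (y axis) in the 3 comparisons with DIO-HFD; red points have an unadjusted limma P value below 0.05, open points do not, and bars are list medians. The medians of the cholesterol lists lie between −0.12 and 0.38 (the efflux and esterification list between DIO-HFD and CON-LFD, 0.03 without DIO-HFD replicate 1), and those of fatty acid synthesis at −2.04, 2.29 and 2.39.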

How the data were processed

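The authors prepared stranded total RNA libraries of mammary adipose tissue. Their methods name STAR alignment to GRCm38 and salmon with a Gencode annotation, whereas the submitters' processing notes name TopHat2 2.0.7, HTSeq 0.5.3p9, DESeq2 and mm10. The use of strand in counting is not given in the sources used here. The deposited values were log2 values from the authors' variance-stabilizing transformation in DESeq2, with a lowest value of 5.36 and a highest of 21.85. The transformation was inverted to normalized counts, which gave whole reads for nearly all values (within 0.01), totals of 46907377 to 57610899 per library and size factors of 0.9036 to 1.2204. Columns were matched to samples by animal number, with 0 columns left over.

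A gene was tested if 4 or more libraries reached 10 normalized counts, on log2(normalized count + 1) with limma 3.58.1 (trend, two-sided, R 4.3.3) in 1 fit of 16 libraries by group, with Benjamini-Hochberg adjustment over all genes and a threshold of 0.05. The script was tested on simulated data. Fold changes are on this log2 scale and understate changes of low genes. Replicates differed by more than sampling noise. The members, lists and tests were chosen with earlier results of these data known. Besides the 8 members, Insig1, up to 3 genes per list with the smallest P in a comparison with DIO-HFD, Srebf1, Fasn and the 5 genes most like the members were named. Some genes of the pathway lists are not reported here and were left out of the list counts. Scores are means of centered log2 values. Alternatives were other scales, pseudocounts (0.5 and 8), filters, normalizations, models, covariates and each library left out. Where a difference was below its SE, no direction was read, and its alternatives were judged by the within-group SD. Gene positions and exons are from the GENCODE annotation of GRCm38, shared stretches from blastn 2.17.0 (at least 200 bases, 90% identity) and promoters from RefSeq.

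Other marker scores had these correlations with the mean of the 8 genes over 16 libraries: T cell −0.26, macrophage −0.08, mammary epithelium 0.22, keratinocyte −0.12, sebaceous gland 0.28, thermogenic adipocyte 0.42, endothelial 0.05, stromal 0.30 and erythroid −0.12.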

Additional observations from a re-analysis of the deposited data

Results flagged for a closer look

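In 9 of 100 groups of 4 libraries (25 genes), 1 library lay apart from the other 3, its gap to the nearest neighbor, as a share of the range of the group, being above Dixon's 95% critical value. Chance marks about 5% of groups at that level. Fdft1 was marked in both DIO-HFD, where replicate 1 was low (0.944), and DIO-VSG, where replicate 3 was high (0.952). DIO-HFD replicate 1 was also high for Stard4 (0.912). CON-LFD replicate 3 was low for Insig1 (0.849) and Srebf1 (0.865). DIO-VSG replicate 1 was low for Tm7sf2 (0.843) and Fasn (0.878), and DIO-VSG replicate 2 was high for Nceh1 (0.94) and Mbtps2 (0.957). The other 7 members had no library marked in any group.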

How the results depend on the processing

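With library quality weights, the members called were 1 (DIO-HFD vs CON-LFD), 2 (DIO-LFD vs DIO-HFD) and 1 (DIO-VSG vs DIO-HFD), against 0 in each without them, and in DIO-HFD vs CON-LFD the median of the members was −0.51. No other alternative called a member, among them leaving out each library in turn (0 to 0 members called in every comparison) and the fits without DIO-HFD replicate 4 and DIO-LFD replicate 4, and without these and DIO-LFD replicate 1, both chosen after seeing the data. Leaving out 1 library called 0 genes of the whole table in most comparisons, and at most 873 (DIO-VSG vs CON-LFD without CON-LFD replicate 3). These 0 counts therefore say little about the members. With scaling to library totals the median of all genes was up to 0.162 away from 0, against 0.022 in the main fit, and Mbtps2 was 0.04 in DIO-HFD vs CON-LFD. Without DIO-HFD replicate 4, DIO-LFD replicate 4 and DIO-LFD replicate 1, Hmgcs1 was −0.61 in DIO-LFD vs DIO-HFD. With the B cell score as covariate Fdft1 was 0.06 in DIO-VSG vs CON-LFD. On the given strand alone, CCAAT was in 1 member window, against 21.1% of all windows. The causes of these shifts were not tested. Leaving out 1 library moved the median of the members between −0.25 and 0.01 in DIO-HFD vs CON-LFD (without DIO-HFD replicate 3 and CON-LFD replicate 1) and between 0.09 and 0.39 in DIO-LFD vs DIO-HFD (without DIO-LFD replicate 4 and DIO-HFD replicate 3). In these fits up to 2 members had an unadjusted P value below 0.05: Srebf2 and Fdft1 without CON-LFD replicate 3 (DIO-HFD vs CON-LFD and DIO-VSG vs CON-LFD), Srebf2 and Fdps without DIO-LFD replicate 1 (DIO-LFD vs CON-LFD), Fdps and Lss without DIO-LFD replicate 1 (DIO-LFD vs DIO-HFD) and Fdps and Cyp51 without DIO-VSG replicate 1 (DIO-VSG vs DIO-HFD). The share of all genes at that unadjusted threshold was not computed for these fits, so the counts are not read as a result about the members. Without CON-LFD replicate 3, 0.603% (DIO-HFD vs CON-LFD) and 4.11% (DIO-VSG vs CON-LFD) of all genes passed the adjusted threshold, against 0.0377% and 0% with all libraries. The replicate block called 0 members in every comparison, and over all genes 1 in place of 8 in DIO-HFD vs CON-LFD. Same-numbered libraries shared only a number, with correlations of −0.61 to 0.53, 9 of 24 pairs over 0.1 and 7 of 16 libraries closest to their own number. With 4 libraries a group, the 95% intervals given for each gene hold the differences compatible with these data.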
